A study of Mus musculus with 13 samples.

Results

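Small nucleolar RNA host genes are genes whose introns carry small nucleolar RNAs (snoRNAs). The 9 genes described here, Gas5, Snhg1, Snhg3, Snhg5, Snhg6, Snhg8, Snhg12, Snhg20 and Zfas1, were chosen by symbol as long non-coding hosts. They are 9 of the 54513 gene rows that were counted, and all 9 had counts. They were followed in lung tissue of male C57Bl/6 mice, 7 to 8 weeks of age, at day 21 of treatment with bleomycin or saline. Bleomycin damages DNA, injures the alveoli and serves as a model of lung fibrosis. Of the 8 bleomycin libraries, replicates 5 to 8 belong to batch 1 and replicates 1 to 4 to batch 2, and all 5 saline libraries belong to batch 1. RNA came from a 10 µm section of formalin-fixed, paraffin-embedded lung, and 8 ng went into a stranded total RNA library, which also takes up RNA without a poly(A) tail. Nothing in the labels ties each library to an animal of its own. The p-values therefore cover the spread between samples only, which may be technical.

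A host gene is transcribed and spliced, and its snoRNAs are then trimmed out of the removed introns and protected by bound proteins. Box C/D snoRNAs guide ribose methylation of ribosomal RNA, and box H/ACA snoRNAs guide pseudouridylation. The spliced host RNA has a separate fate. In mammalian cells many spliced host RNAs, Gas5 among them, are taken onto ribosomes and degraded by nonsense-mediated decay. Several hosts share with ribosomal protein genes a terminal oligopyrimidine start, an unbroken stretch of C and T at the first transcribed bases. Gas5 was named for its rise in growth-arrested cells, and Zfas1 for its position antisense to the start of Znfx1.

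None of the 9 hosts was called between bleomycin and saline lungs, while most snoRNA rows of the same libraries were called lower in bleomycin. Levels are given as CPM, the count as a share of the scaled library total. Treatment was tested by edgeR's quasi-likelihood test with batch as a term, over 20468 genes, and a gene was called at a Benjamini-Hochberg adjusted p under 0.05. Of the 9 hosts, 0 were called higher and 0 lower, against a background of 17.5% of tested genes called higher and 13.4% called lower (30.9% in either direction). DESeq2 and limma-voom also called 0, and at an unadjusted p under 0.05 edgeR passed 1 host, Snhg8, on the lower side. By edgeR p, Snhg8 held rank 8383 among the 20468 tested genes, so passing at that threshold was common. In none of the 9 were the batch 1 bleomycin and saline libraries apart from each other, where 25.3% of tested genes were (14% higher and 11.3% lower in bleomycin). The log2 changes of the hosts ran between -0.54 and 0.37 with a median of -0.05, and the median of all tested genes was 0.03.

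**Figure D1:**
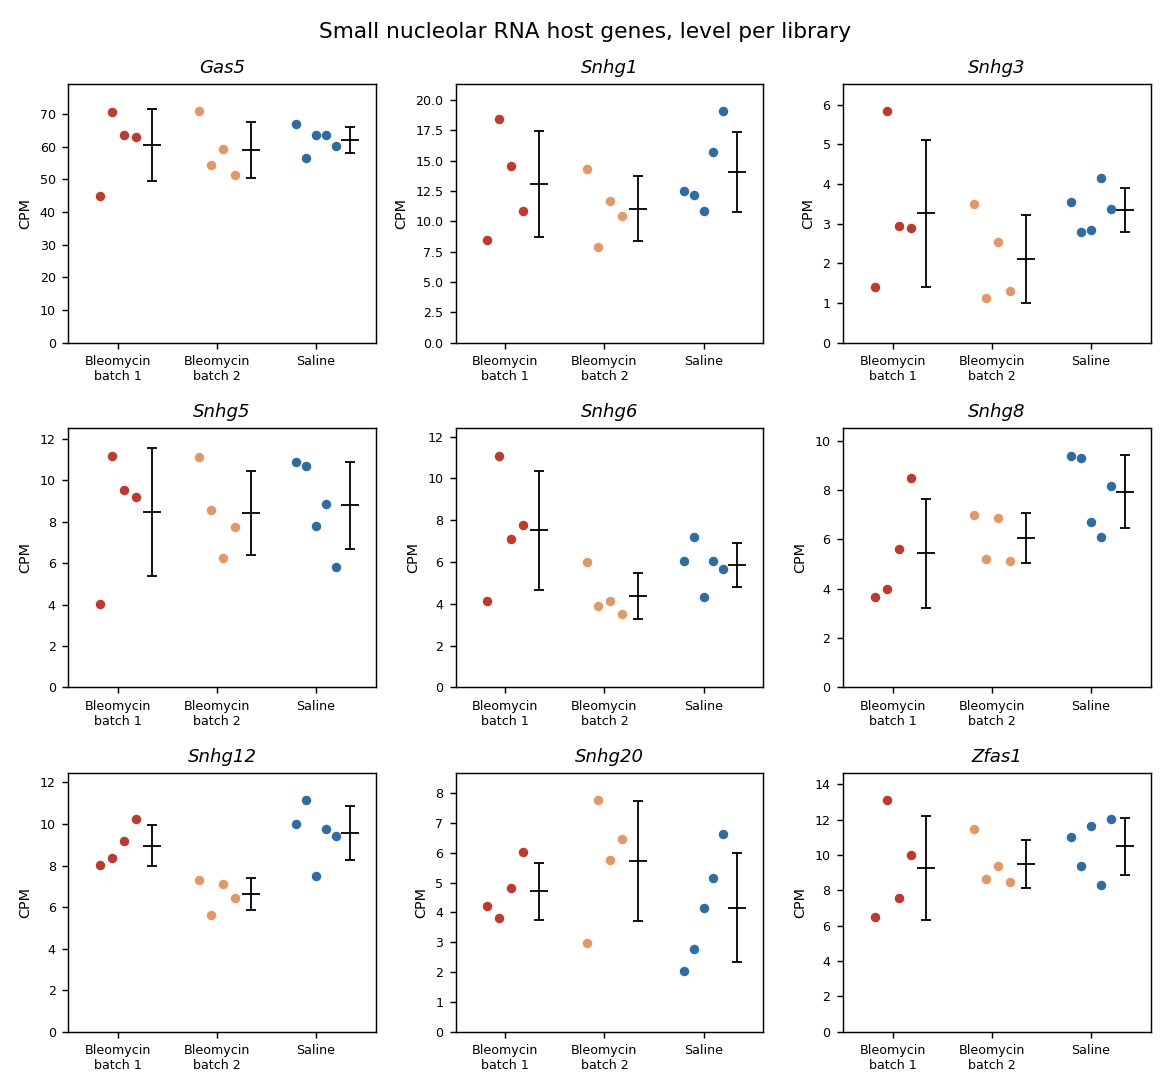
CPM of each host in every library (points), with group means and SD, for batch 1 bleomycin (n = 4), batch 2 bleomycin (n = 4) and saline (n = 5). For all 9 hosts the batch 1 bleomycin points overlap the saline points, and Gas5 lies far above the others.

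Gas5 was the most abundant host. Batch 1 bleomycin replicates 5 to 8 held 44.7, 70.4, 63.5 and 62.9 CPM of Gas5. Batch 2 bleomycin replicates 1 to 4 held 70.7, 54.5, 59.3 and 51.3 CPM, and saline replicates 1 to 5 held 66.9, 56.5, 63.5, 63.7 and 60.1 CPM. Both bleomycin batches reached below and above the saline range. The log2 change was -0.04 with a standard error (SE) of 0.12 and an adjusted p of 0.827 by edgeR. Its 95% interval, a fold of 0.811 to 1.16, was the narrowest among the hosts. Gas5 supplied 50.2% of the summed host CPM in batch 1 bleomycin, 52.2% in batch 2 bleomycin and 49.2% in saline.

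Snhg8, the host of Snora24, had the largest difference of the 9. Its batch 1 bleomycin replicates 5 to 8 held 3.67, 3.99, 5.59 and 8.49 CPM. Batch 2 bleomycin replicates 1 to 4 held 6.97, 5.203, 6.85 and 5.13 CPM, and the saline replicates held 9.38, 9.28, 6.71, 6.10 and 8.16 CPM. Bleomycin replicate 8 was the only batch 1 bleomycin library inside the saline range, and the other 3 lay below it. The log2 change was -0.54 (SE 0.25), with an edgeR p of 0.0479 and an adjusted p of 0.117. Bleomycin replicate 8 carries conflicting labels: its title names a control, while its treatment label and library name say bleomycin. Without that library the log2 change of Snhg8 was -0.87 and the adjusted p 0.0143, which passed the threshold. Over all 23 alternatives the adjusted p of Snhg8 ranged between 0.0143 and 0.277.

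Snhg6 had the largest difference on the higher side, and it did not pass the test. Batch 1 bleomycin replicates 5 to 8 held 4.12, 11.1, 7.09 and 7.76 CPM. Batch 2 bleomycin replicates held 5.98, 3.88, 4.14 and 3.51 CPM, and saline replicates held 6.05, 7.19, 4.31, 6.03 and 5.66 CPM. Within batch 1 the bleomycin libraries spanned the saline range at both ends. The log2 change was 0.37 (SE 0.26, edgeR adjusted p = 0.309).

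Snhg12 was not called for treatment, and its batch 2 libraries were low. Its batch 1 bleomycin replicates held 8.03, 8.37, 9.17 and 10.2 CPM. Batch 2 bleomycin replicates held 7.31, 5.61, 7.10 and 6.44 CPM, and saline replicates held 9.97, 11.1, 7.52, 9.74 and 9.41 CPM. All 4 batch 2 libraries lay below every batch 1 bleomycin library, as in 4.8% of tested genes, and below every saline library, as in 12.9%. It was the only host for which batch 2 lay apart from batch 1 bleomycin, and 2.78% of tested genes lay apart on the higher side. The treatment change was -0.09 on the log2 scale (SE 0.17, edgeR adjusted p = 0.721).

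The remaining hosts overlapped between the groups as well. Snhg1 ranged over 8.49 to 18.4 CPM in batch 1 bleomycin, 7.86 to 14.3 CPM in batch 2 bleomycin and 10.9 to 19.0 CPM in saline, with a log2 change of -0.10 (SE 0.23). Snhg5 ranged over 4.04 to 11.2 CPM in batch 1 bleomycin, 6.26 to 11.1 CPM in batch 2 bleomycin and 5.81 to 10.9 CPM in saline, with a log2 change of -0.05 (SE 0.27). In both hosts each bleomycin batch overlapped the saline libraries. Snhg3 gave a log2 change of -0.03 (SE 0.39), Zfas1 of -0.18 (SE 0.21) and Snhg20, which holds no annotated snoRNA, of 0.18 (SE 0.33). Their edgeR adjusted p-values were 0.962, 0.551 and 0.716, and those of Snhg1 and Snhg5 were 0.775 and 0.907. The widest interval was that of Snhg3, a fold of 0.553 to 1.73, so changes within that interval are not excluded. A host RNA that differs between cell types can also change in bulk tissue with the cells present, and fewer cells of a type and less RNA per cell cannot be told apart.

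**Figure D2:**
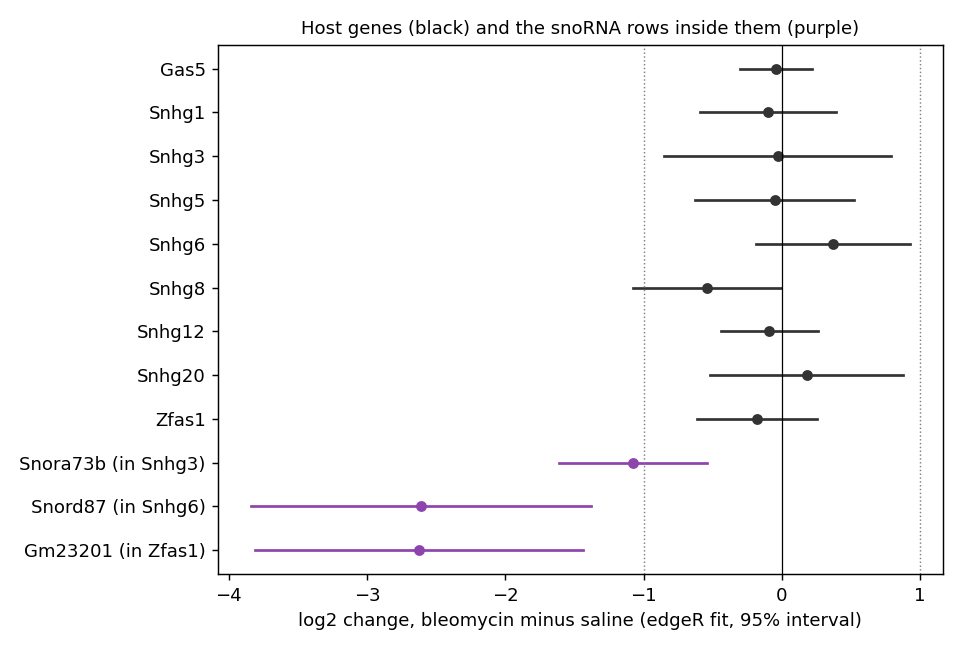
Log2 change of each host (black) and of the 3 tested snoRNA rows inside hosts (purple) in bleomycin against saline, with 95% intervals from the edgeR fit and dotted lines at a log2 change of -1 and 1. The host intervals include 0 except that of Snhg8, which runs between -1.08 and -0.01, and the 3 snoRNA intervals lie below 0.

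Within the bleomycin batches some libraries were high or low for most hosts, while Snhg20 did not follow the others. Over the 36 pairs of hosts, centred within the 3 groups, the median Pearson r over the 13 libraries was 0.38, 15 pairs were above 0.5, and all 8 pairs with Snhg20 were negative (-0.05 to -0.45). Bleomycin replicate 5 was the lowest of the batch 1 bleomycin libraries for 8 of the 9 hosts, with 85.2 CPM summed over the hosts, and bleomycin replicate 6 was the highest for 6 hosts, with 146 CPM. In batch 2, bleomycin replicate 1 was the highest for 8 hosts, with 134 CPM, and replicates 2, 3 and 4 had 103, 113 and 101 CPM. In saline no library was the highest or the lowest for more than 3 hosts, and the sums were 119 to 132 CPM. The sums of batch 2 replicates 2, 3 and 4 lay below every saline sum. Between libraries, after centring within the 3 groups, the genes most like the mean of the hosts over the 13 libraries included F3 (Pearson r 0.932), Slc7a2 (0.931), Maged2 (0.923) and Enpp1 (0.912), out of 12979 genes that averaged 5 CPM or more. The correlations are a description: each is among the highest of many, and the points share library depth and composition.

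Batch 2 bleomycin was set directly against batch 1 bleomycin. Of the 9 hosts, 0 were called by edgeR, DESeq2 or limma-voom, and edgeR called 1.68% of tested genes (0.547% higher and 1.13% lower in batch 2). The 2 hosts with the lowest edgeR p both lay on the lower side in batch 2. Snhg6 changed by -0.79 on the log2 scale with an edgeR p of 0.0147 and an adjusted p of 0.195. For Snhg12 the values were -0.44, 0.0277 and 0.264. Against saline, the median log2 difference in batch 2 bleomycin was -0.35 for the hosts and -0.01 for all tested genes, and it was not tested. A comparison of batch 2 bleomycin with saline cannot be told apart from batch, since no saline library belongs to batch 2.

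Levels were compared between hosts per kilobase of annotated exon, joined over all annotated isoforms of a host. These lengths ran from 853 bases for Snhg8 to 3760 for Gas5. They can exceed the length of the spliced RNA, so the order of the hosts depends on the annotation. Gas5 led in every group, and in saline it reached 16.5 ± 1.06 CPM per kb (SD, n = 5). Snhg8 followed in saline with 9.29 ± 1.74 CPM per kb, and its libraries did not overlap those of Gas5 above or Snhg6 below. Snhg6, Snhg5, Snhg1, Snhg12, Zfas1 and Snhg3 came next with 5.10, 5.09, 4.74, 3.98, 3.58 and 3.39 CPM per kb, each overlapping its neighbours among these 6. Snhg20 came last with 1.49 ± 0.655 CPM per kb and did not overlap Snhg3. In batch 1 bleomycin the only neighbours in the order that did not overlap were Gas5 over Snhg6 and Zfas1 over Snhg20, and in batch 2 bleomycin only Gas5 over Snhg8.

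The first transcribed bases were read for the hosts because they carry the oligopyrimidine start. RefSeq promoters of build GRCm38.p6 held 9 starts of 8 hosts, 2 of them for Gas5. A run of at least 5 C or T bases from the start, beginning with either base, was present in 3 of these 9 (33.3%). It was present in 18 of 78 ribosomal protein promoters (23.1%) and in 1457 of 32851 promoters in all (4.44%). Most ribosomal protein promoters thus lacked the run, although their genes share the oligopyrimidine start. Annotated starts may differ from those used in these lungs, so a start without the run does not show that the host lacks it. Each line below gives 20 bases before the start and 20 from it, 5′ to 3′ on the gene's own strand, with the run of C and T from the start in capitals. They lie at chr1:161035146-161035185 (plus strand) for the downstream of the 2 Gas5 starts, chr3:123508317-123508356 (minus strand) for Snhg8 and chr4:132308658-132308697 (plus strand) for Snhg12. Zfas1, at chr2:167062914-167062953 (plus strand), is shown as a start without such a run.
Gas5: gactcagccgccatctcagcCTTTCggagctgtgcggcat
Snhg8: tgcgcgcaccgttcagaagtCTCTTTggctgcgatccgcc
Snhg12: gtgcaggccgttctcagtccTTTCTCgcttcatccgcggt
Zfas1: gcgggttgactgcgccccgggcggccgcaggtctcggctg
Snhg8, Snhg12 and Gas5, the last at the downstream of its 2 annotated starts, showed the run. Their log2 changes in bleomycin were -0.54, -0.09 and -0.04. Zfas1, without the run at its annotated start, gave -0.18. None of them was called, and no relation between start and change was tested.

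The hosts were set beside all snoRNA rows, most of which do not lie inside them: 2 of the 61 tested rows, Snora73b and Snord87, lie inside one of the 9 hosts. Of 141 rows with a Snord or Snora symbol, 72 were at 0 in every library and 61 were tested. Of these 61, 55 were called lower in bleomycin and 0 higher by edgeR, against the background of 13.4% and 17.5%. DESeq2 called 57 lower and limma-voom 54, and at an unadjusted p under 0.05 edgeR passed 57 lower and 0 higher. The median log2 change of the tested rows was -2.00, with single rows between -4.03 and -0.46, and all 61 were below 0. In 50 of the 61 every batch 1 bleomycin library lay below every saline library, where 11.3% of tested genes did so. Box C/D rows (Snord) had a median of -2.20 over 45 rows and box H/ACA rows (Snora) of -1.65 over 16.

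**Figure D3:**
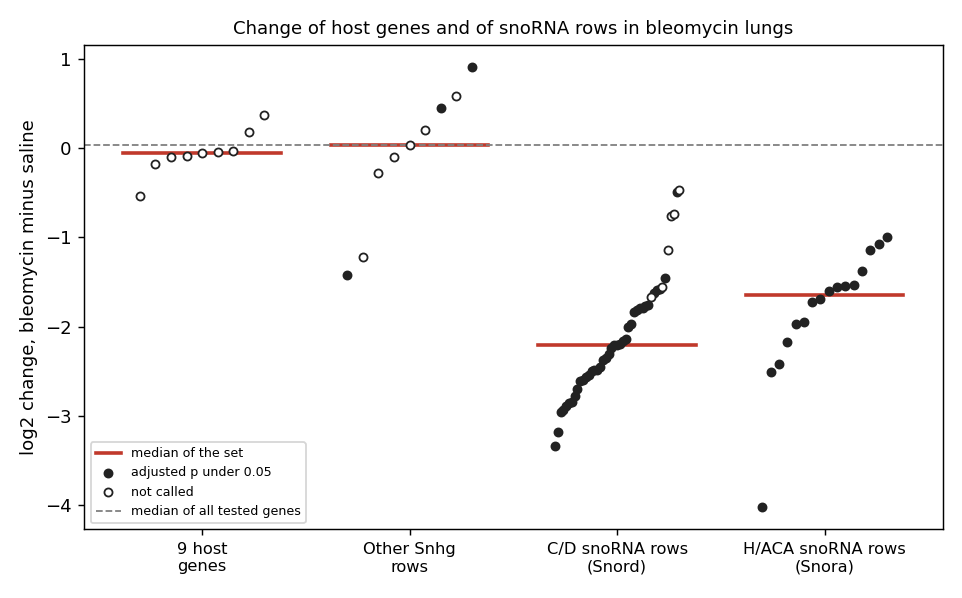
Log2 change in bleomycin against saline for each tested host, other Snhg row, Snord row and Snora row (filled where called by edgeR, open where not), with the median of each set as a red line and the median of all tested genes, 0.03, as a dashed line. The hosts centre near 0 with a median of -0.05, and the snoRNA rows all lie below 0, with medians of -2.20 for Snord and -1.65 for Snora.

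The largest falls among called snoRNA rows with a mean of at least 5 CPM were those of Snord85, Snord61 and Snord104, all box C/D RNAs. Snord85 averaged 17.0 CPM in batch 1 bleomycin, 37.5 CPM in batch 2 bleomycin and 172 CPM in saline, a log2 change of -3.34 (SE 0.57, edgeR adjusted p = 0.00147). Snord61 changed by -3.18 and Snord104 by -2.95. Among called rows of that level the smallest falls were those of Snord17, at -0.49, Snora57, at -1.001, and Snora73b, at -1.07. The call of Snord17 (edgeR adjusted p = 0.0465) held in only 9 of 22 alternatives. Saline replicate 2 held the most snoRNA, 9208 CPM summed over the rows, against 2949 to 4316 CPM in the other saline libraries. Batch 1 bleomycin libraries held 1165 to 2082 CPM and batch 2 bleomycin libraries 1672 to 2407 CPM. Without bleomycin replicate 8 and saline replicate 2 the median snoRNA change was -1.56 and 48 rows were called lower.

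The snoRNAs that lie inside the hosts themselves could be followed for 3 hosts. In the GENCODE M21 annotation 29 distinct snoRNA rows lie inside 8 of the 9 hosts, among them Snord47 in Gas5, Snord22 in Snhg1, Snord50a in Snhg5 and Snora44 in Snhg12. Of these, 27 overlap an annotated exon of a host isoform, and 25 of the 27 were at 0 in every library. The other 2 of the 27 had counts: Snora73a with 94 counts over all libraries, and Gm23201. The 2 rows that overlap no host exon, Snora73b and Snord87, were both counted. Of the 141 Snord and Snora rows 133 matched the annotation. Of these, 52 of the 61 that overlap an exon of another gene were at 0 in every library (85.2%), against 16 of the 72 that overlap none (22.2%), and all 16 were copies of the Snord116l family. How reads in overlapping features were assigned is not given in the sources used here, so a 0 in these rows does not show that the snoRNA is absent. Reads of such a snoRNA may have been counted in its host row or left uncounted. The levels, changes and order of the hosts carry that limit too, and its size was not tested.

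The sequences of the 3 tested hosted snoRNAs, and of Snord47 as an example listed at 0, show the box elements that define their class. They come from GENCODE M21 transcripts, written 5′ to 3′. In the box H/ACA RNA the capitals mark ACA before the last 3 bases. In the other sequences they mark TGATGA near the 5′ end and CTGA near the 3′ end, searched on the RNA strand only. A CTGA elsewhere, as in the middle of Snord87, is left unmarked. That ACA is present in 31 of 37 Snora sequences (83.8%), and TGATGA together with CTGA at these ends in 65 of 95 Snord sequences (68.4%).
Snora73b (in Snhg3): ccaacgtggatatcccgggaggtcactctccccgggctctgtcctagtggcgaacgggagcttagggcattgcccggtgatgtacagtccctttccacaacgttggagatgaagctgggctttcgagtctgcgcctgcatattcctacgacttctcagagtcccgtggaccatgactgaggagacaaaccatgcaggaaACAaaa
Snord87 (in Snhg6): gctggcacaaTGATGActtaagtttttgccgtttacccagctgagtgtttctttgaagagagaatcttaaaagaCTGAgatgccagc
Gm23201 (in Zfas1): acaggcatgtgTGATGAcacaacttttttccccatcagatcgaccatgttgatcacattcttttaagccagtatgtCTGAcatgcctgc
Snord47 (in Gas5): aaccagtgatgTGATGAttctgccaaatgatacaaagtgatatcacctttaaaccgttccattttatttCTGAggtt

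All 3 tested snoRNAs inside hosts were called lower in bleomycin. So were 55 of the 61 tested Snord and Snora rows (90.2%), and 13.4% of all tested genes. The hosts of the 3 snoRNAs were not called. Snora73b, a box H/ACA RNA in an intron of Snhg3, had 134, 230, 209 and 123 CPM in batch 1 bleomycin replicates 5 to 8. In batch 2 bleomycin replicates 1 to 4 it had 139, 132, 162 and 157 CPM, and in saline replicates 1 to 5 it had 324, 599, 311, 326 and 274 CPM. Every bleomycin library of either batch lay below every saline library. Its log2 change was -1.07 (SE 0.25, edgeR adjusted p = 0.00570).

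Snord87, a box C/D RNA in Snhg6, was low in batch 1 bleomycin. It had 9.31, 15.4, 22.3 and 17.2 CPM in batch 1 bleomycin replicates, 44.0, 40.5, 105 and 47.2 CPM in batch 2 bleomycin replicates and 97.4, 221, 65.6, 72.2 and 35.2 CPM in saline replicates. The batch 1 bleomycin libraries lay below every saline library and below every batch 2 library, and the batch 2 libraries overlapped saline. The log2 change was -2.61 (SE 0.56, edgeR adjusted p = 0.00525), and without the batch term it was -1.39 (adjusted p = 0.0925). Between the bleomycin batches Snord87 was 1.89 higher in batch 2 on the log2 scale, with an adjusted p of 0.138 by edgeR and 0.0186 by DESeq2.

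Gm23201, an annotated snoRNA in Zfas1, had 23.7, 36.3, 57.8 and 32.3 CPM in batch 1 bleomycin replicates. Batch 2 bleomycin replicates had 53.6, 51.0, 105 and 67.4 CPM, and saline replicates had 198, 545, 166, 164 and 87.7 CPM. The batch 1 bleomycin libraries lay below every saline library, and of batch 2 only replicate 3 lay above the lowest saline library. The log2 change was -2.63 (SE 0.54, edgeR adjusted p = 0.00420).

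**Figure D4:**
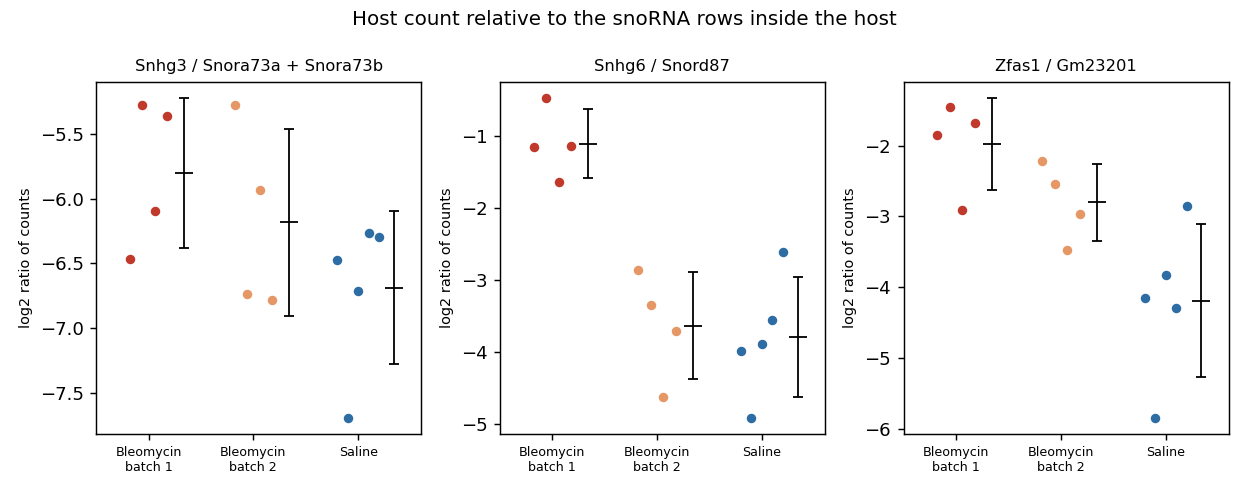
Log2 ratio of host count to the summed count of the snoRNA rows counted inside it (prior count 2) in each library, with group means and SD, for Snhg3, Snhg6 and Zfas1 in batch 1 bleomycin, batch 2 bleomycin and saline. For Snhg6 all 4 batch 1 bleomycin points lie above all 5 saline points, and for Snhg3 and Zfas1 the points overlap.

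The ratio of host to snoRNA within a library removes library scaling, and no test of it was set. Any difference between libraries in the recovery of short against long RNA stays in the ratio and was not tested. For Snhg6 the mean log2 ratio was -1.10 ± 0.481 in batch 1 bleomycin, -3.63 ± 0.749 in batch 2 bleomycin and -3.79 ± 0.831 in saline (SD). Batch 1 bleomycin stood 2.69 above saline and overlapped none of its libraries, while batch 2 stood 0.16 above it. For Zfas1 the differences against saline were 2.21 in batch 1 and 1.39 in batch 2, and for Snhg3 0.89 and 0.50, all with overlapping libraries. Whether host and snoRNA changed differently was thus not tested.

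Genes that overlap the hosts bear on how far their counts can be read, since the strand setting of the counting is not given. Rcc1, the exchange factor of the Ran GTPase, lies on the same strand as Snhg3 with overlapping exons. It averaged 11.4 ± 2.46 CPM in batch 1 bleomycin, 7.57 ± 0.967 CPM in batch 2 bleomycin and 5.13 ± 1.03 CPM in saline (SD), all batch 1 bleomycin libraries above all saline libraries. It was called higher, by 1.16 on the log2 scale (SE 0.20, edgeR adjusted p = 0.000530). Because the exons overlap, reads of Snhg3 and Rcc1 may be shared between the rows or left uncounted. Gm17300, on the opposite strand of Snhg3, was called lower with a log2 change of -1.11 (adjusted p = 0.0107). Znfx1, opposite Zfas1, and Zbtb37, opposite Gas5, changed by 0.21 and 0.18 with adjusted p-values of 0.122 and 0.315, short of a call. Their part in the host counts was not tested.

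Other host genes of the Snhg name series were called about as often as all genes. Of 10 further Snhg rows 9 were tested, and 2 were called higher (22.2%) and 1 lower (11.1%), against 17.5% and 13.4% of all tested genes, with a median log2 change of 0.04. Snhg11 was called lower with a log2 change of -1.42 (SE 0.34, edgeR adjusted p = 0.00711), with the batch 1 groups apart. Snhg15 was called higher by 0.91 (adjusted p = 0.0194) and Snhg17 by 0.45 (adjusted p = 0.0357), in 15 and 8 of 23 alternatives. Snhg4 gave 0.58 and an adjusted p of 0.0553.

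Of 19 tested protein-coding snoRNA hosts, 9 were called higher (47.4%) and 0 lower, against 17.5% and 13.4% of all tested genes. Their median log2 change was 0.31, and that of all tested genes 0.03. They include Rcc1, Eif4a1, an RNA helicase of translation initiation (0.67), and Nop58, a core protein of box C/D particles that hosts snoRNAs too (0.63). Rpsa, a small-subunit ribosomal protein, was higher by 0.57. The median of the list exceeds that of the long non-coding hosts, -0.05, and the difference between the lists was not tested.

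The proteins that assemble on snoRNAs and the ribosomal and decay genes around the hosts are given against the same background, 17.5% called higher and 13.4% lower. Of 19 snoRNP and assembly factors, 2 were called higher, Nop58 and the methyltransferase Fbl (log2 change 0.59, edgeR adjusted p = 0.00964), and 1 lower, the H/ACA protein Nop10 (-0.69, adjusted p = 0.00617). These shares, 10.5% and 5.26%, are below the background, and the median was 0.26. Tgs1, the cap hypermethylase, gave 0.26 and an adjusted p of 0.0602. Of 90 tested ribosomal protein rows 5 were called higher and 5 lower, 5.56% each and below the background, with a median of -0.04. Rpsa and Rps2 rose by 0.57 and 0.54, while Rps3a3 at -1.001 and Rps4l at 0.79 have close relatives whose reads may be shared. Of 11 translation factors 3 were called higher (27.3%), Eif4a1, Eef1g at 0.40 and Npm1 at 0.35, and 0 lower, and the oligopyrimidine gene Tpt1 gave -0.28 without passing. Of 19 nonsense-mediated decay factors 2 were called higher (10.5%), the exon junction helicase Eif4a3 at 0.51 and Smg9 at 0.57, and 0 lower, with a median of 0.03. Upf1 at 0.21 and Smg1 at -0.20 did not pass.

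The libraries differed in depth and in marker levels. Total counts were 21727502 to 28885129 in batch 1 bleomycin, 6337147 to 12982422 in batch 2 bleomycin, and in saline 9527580 to 26043735. The lowest host count in any library was 9, for Snhg3 in batch 2. Markers of fibrosis (6 of 6), macrophages (7 of 7), B cells (6 of 6), cycling cells (6 of 6), leukocytes (4 of 4) and T cells (4 of 8) were called higher in bleomycin. Those of alveolar type 2 cells (4 of 5), alveolar type 1 cells (3 of 5), club cells (3 of 3) and endothelium (3 of 5) were called lower. Of 4 heart muscle markers 0 were called. Of all tested genes 17.5% were called higher and 13.4% lower. Summed macrophage markers were 341 to 624 CPM in batch 1 bleomycin, 426 to 637 CPM in batch 2 bleomycin and 138 to 150 CPM in saline. Their part in the host levels was not tested. Bleomycin replicate 8 had 8202 CPM of Fn1 and 3982 CPM of Col1a1, against 369 to 450 CPM and 215 to 324 CPM in saline.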

How the data were processed

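Total RNA-seq libraries from formalin-fixed lung of 8 bleomycin and 5 saline samples were used. The counts are whole numbers per gene symbol without normalization, as the authors deposited them. Per the submitters' processing notes, the tools were STAR 2.7.10b, featureCounts 2.0.3, cutadapt 4.4 and DESeq2 1.42.1 with build mm39. The sources used here do not give their roles, strand setting, annotation release or use of molecular identifiers. Among counts between 1 and 10, 78.4% to 86.1% were even per library, so a read pair may count as 2, and counts need not be separate molecules. A deposited normalized table was not used.

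Rows passing filterByExpr were scaled by TMM and tested with edgeR 4.0.16 (R 4.3.3), batch and treatment as terms, 20468 genes, Benjamini-Hochberg adjusted p under 0.05. Depth was 6337147 to 28885129 counts per library, and intervals cover the fit's error. The treatment term rests on 4 bleomycin and 5 saline libraries of batch 1. DESeq2 1.42.0 and limma-voom (limma 3.58.1) were alternatives. The test was also run on simulated counts, drawn with the same dispersion for every gene and with a treatment or a batch effect, never both. Because of these settings, that run does not show how the test behaves on the real counts. Duplicates were looked for in 38 pairs of libraries, which are not all possible pairs, and none was found among them (lowest chi-square over its degrees of freedom 9.18). Host overlap and lengths came from GENCODE M21, joined by symbol.

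The named genes are all 9 hosts, every snoRNA row inside them, up to 4 rows of each related list by lowest p, the 3 highest and 3 lowest log2 changes among called snoRNA rows averaging 5 CPM or more (none was called higher, so the highest are the smallest falls), and the 5 genes most like the hosts, of which 1 is not reported here. The hosts and lists were chosen with earlier results of these data known.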

Additional observations from a re-analysis of the deposited data

Results flagged for a closer look

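Within groups of 4 or 5 libraries, 39 sets of host and hosted snoRNA values were examined for a single library far from the others, and 3 had one; chance gives about 1 in 20. For Snora73b, saline replicate 2 had 599 CPM and the next highest saline library 326 CPM. For Gm23201, saline replicate 2 had 545 CPM and the next highest 198 CPM. For Snord87, batch 2 bleomycin replicate 3 had 105 CPM and the next highest of that batch 47.2 CPM. None of the 9 hosts had such a library. Without saline replicate 2 the log2 changes were -0.87 for Snora73b, -2.08 for Gm23201 and -2.12 for Snord87, and all 3 passed the edgeR test.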

How the results depend on the processing

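The treatment comparison was repeated under 23 alternatives, 13 of them leaving out a library. The hosts called higher stayed at 0 in all 23, and the hosts called lower were 0 except 1, Snhg8, without bleomycin replicate 8 and without bleomycin replicate 8 plus saline replicate 2 (an alternative added after the data were seen), so leaving out a library gave 0 to 1. The median host change ranged from -0.44 to 0.08, and Gas5, Snhg1, Snhg3, Snhg5, Snhg6 and Snhg20 changed sign in 1 to 5 alternatives. A replicate block, with 5 shared numbers that only name samples (correlations of their deviations -0.27 to 0.05), gave a median host change of -0.44 and 2383 genes called higher, against 3586. Under that block Snord87 was -1.11 (adjusted p = 0.25) and Gm23201 -1.82 (adjusted p = 0.061). With bleomycin replicate 8 moved to saline, 645 genes were called, 399 higher and 246 lower, and 1 snoRNA row lower, while the median snoRNA change was -1.70 against -2.00, with Snord87 at -2.42 and Gm23201 at -2.33. Between bleomycin batches, 343 genes were called, 737 by DESeq2, 106 by limma-voom, 1161 without both doubted libraries, and 148 to 1093 leaving out 1 library. The causes were not tested. Depth limits Snhg3 most, with counts down to 9.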
